A study of Homo sapiens with 15 samples.

Results

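SH-SY5Y, a human neuroblastoma cell line, was set against 4 other neuroblastoma lines, and the genes that stood above or below all of them were taken as its set. On arrays centred on a common median, 162 genes were higher and 99 were lower in SH-SY5Y than in every other line by a line-mean difference of at least 1 on the log2 scale, which is 261 of 18244 genes. The differences themselves chose these genes, so their size is given as a description. The highest by this rule were NNAT, NPTX2, NUDT10 and the germline gene PIWIL1, and the lowest were ASS1, NRIP1, PTPRK and the peripheral neurofilament gene PRPH.

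The study measured total RNA of 5 neuroblastoma lines on 15 arrays, 3 per line: SH-SY5Y (spelled SHS-Y5Y in the labels), SK-N-AS (SKNAS), NGP, BE(2)-C and KELLY. All lines were untreated as far as the labels say, grew in the same serum-containing medium and carried no introduced allele or agent that the labels name. Cells were counted before lysis, and ERCC spike-in RNAs were added at lysis. The series title places the study in MYCN-dependent transcription. As general knowledge, NGP, BE(2)-C and KELLY carry an amplified MYCN gene, whereas SH-SY5Y and SK-N-AS do not. SH-SY5Y is a cloned subline of SK-N-SH, and BE(2)-C is a clone too, so each group is 1 line and the values describe these lines and no class of tumour. The labels number the replicates without naming separate cultures, so p-values measure only the spread between arrays, which may be technical.

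Neuroblastoma arises from sympathoadrenal cells of the neural crest, and its lines range from adrenergic cells, which keep the noradrenergic neuron programme, to mesenchymal cells with a matrix-rich programme. SH-SY5Y is widely used as a neuron-like adrenergic line and is known to express MYC rather than amplified MYCN. Imprinted genes are expressed from the copy of 1 parent, PIWI proteins silence transposons with small RNAs in the germline, and NUDT hydrolases remove pyrophosphates from signalling molecules such as inositol phosphates.

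Levels are given as scaled intensities, that is, each array's values after log2(intensity + 1), shifted so that the median of the tested genes was the same on all arrays (290 on the linear scale). Tests were run on the 12721 genes whose brightest line had a mean at or over the median of the whole table, a deposited intensity of 80.6. The shift matters for SH-SY5Y, whose arrays had the lowest median deposited intensity, 54.4 ± 2.65 (SD, n = 3), against 68.3 to 123 in the other lines. The tested genes also lay lowest against the spike-ins there, at -1.37 ± 0.03 on the log2 scale, against -0.09 to -1.22 elsewhere. The 23 background probe sets were alike before the shift, with line means of 16.5 to 17.9, and stood after it at 27.2 in SH-SY5Y, 23.9 in KELLY, 20.6 in NGP, 12.9 in BE(2)-C and 11.4 in SK-N-AS. A gene at background thus stood 1.25 (log2) higher in SH-SY5Y than in SK-N-AS, and 0.19 higher than in KELLY, from the shift alone. The 3' minus 5' difference of the GAPDH control was 0.35 ± 0.03 in SH-SY5Y and 0.18 to 0.24 in the other lines. That of ACTB was 1.10 ± 0.20 in SH-SY5Y, within the 0.71 to 1.23 of the others, and the part of RNA quality in the results was not tested. The lowest correlation between arrays within a line was 0.993, the highest between lines was 0.892, and 0 pairs were identical.

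The line label fitted its markers in part. The 9 sympathetic neuroblast markers measured, among them PHOX2A, HAND2, ISL1, GATA3 and DBH, summed to 40735 in SH-SY5Y, against 8975 in SK-N-AS and 30206 to 47145 in the 3 amplified lines. TH, the first enzyme of catecholamine synthesis, stood at only 143, beside 141 in SK-N-AS, 138 in NGP and 1961 in KELLY. The 5 mesenchymal markers summed to 2365, of which VIM gave 2009, and CD44, YAP1 and PRRX1 lay at 34.5 to 37.6. Schwann, leukocyte, epithelial and endothelial markers summed to 188, 169, 313 and 173, and the brightest member was KRT19 at 109.6. The 3 fibroblast markers summed to 657, of which PDGFRA, also a receptor of mesenchymal neuroblastoma cells, gave 569.

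Of the 162 higher genes, 120 were bright enough to be tested, and all 99 lower genes were. Every tested gene of the set also passed limma's moderated test in all 4 contrasts (Benjamini-Hochberg adjusted p under 0.05), so 120 genes, 0.943% of those tested, were called higher and 99, or 0.778%, were called lower. These percentages describe the rule and support nothing. The adjusted p-values printed below for single members belong to genes that the same differences chose, so they too are descriptions and no support. The 42 higher genes left out had SH-SY5Y means of 37.9 to 121. Of these 42, 34 lay above every other line before the shift, and 6 by at least 1. In 27 of the 120 (22.5%) all 4 other lines lay below the brightness filter, so that these genes passed it through SH-SY5Y alone. NUDT10 and PIWIL1 were among them. In 67 of the 99 lower genes (67.7%) SH-SY5Y itself lay below it.

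The sets were graded. The median difference from the nearest line was 1.44 for the higher and -1.41 for the lower genes, 28 and 26 genes reached 2, and 8 and 10 reached 3. The 3 SH-SY5Y arrays did not overlap the 12 other arrays for any of the 120 higher genes and for 98 of the 99 lower ones. The exception was CCNC, a cyclin of the Mediator kinase module, with 458, 1170 and 446 in SH-SY5Y against 1072 to 1861 in the other arrays. The rule had already set the line means of these genes at least 1 apart, so the separation of arrays follows largely from it. The share of all tested genes with such a separation was not counted. The nearest line to SH-SY5Y was KELLY for 40 of the higher genes, BE(2)-C for 30, SK-N-AS for 26 and NGP for 24. For the lower genes it was NGP for 26, BE(2)-C and KELLY for 25 each and SK-N-AS for 23. These counts hold on centred arrays, where background stood at 23.9 in KELLY and 11.4 in SK-N-AS. For genes dim in the other lines the nearest line can change with the scale. NUDT10, nearest in KELLY after the shift, had deposited means of 18.6 in KELLY and 27.3 in BE(2)-C. The other 4 lines lay within 1 (log2) of each other for 38 of the 120 and 33 of the 99, so most members also varied among the lines SH-SY5Y was compared with. At the threshold, TRIM36 (1.002) and CACNG4 (1.01) lay just inside and ETNK2 (0.99) and SLC35D3 (0.98) just outside on the higher side. On the lower side, CDKN1A (-1.002) and PRDX4 (-1.01) lay inside and DESI1 and APOBEC3C (-0.99 each) outside.

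**Figure D1:**
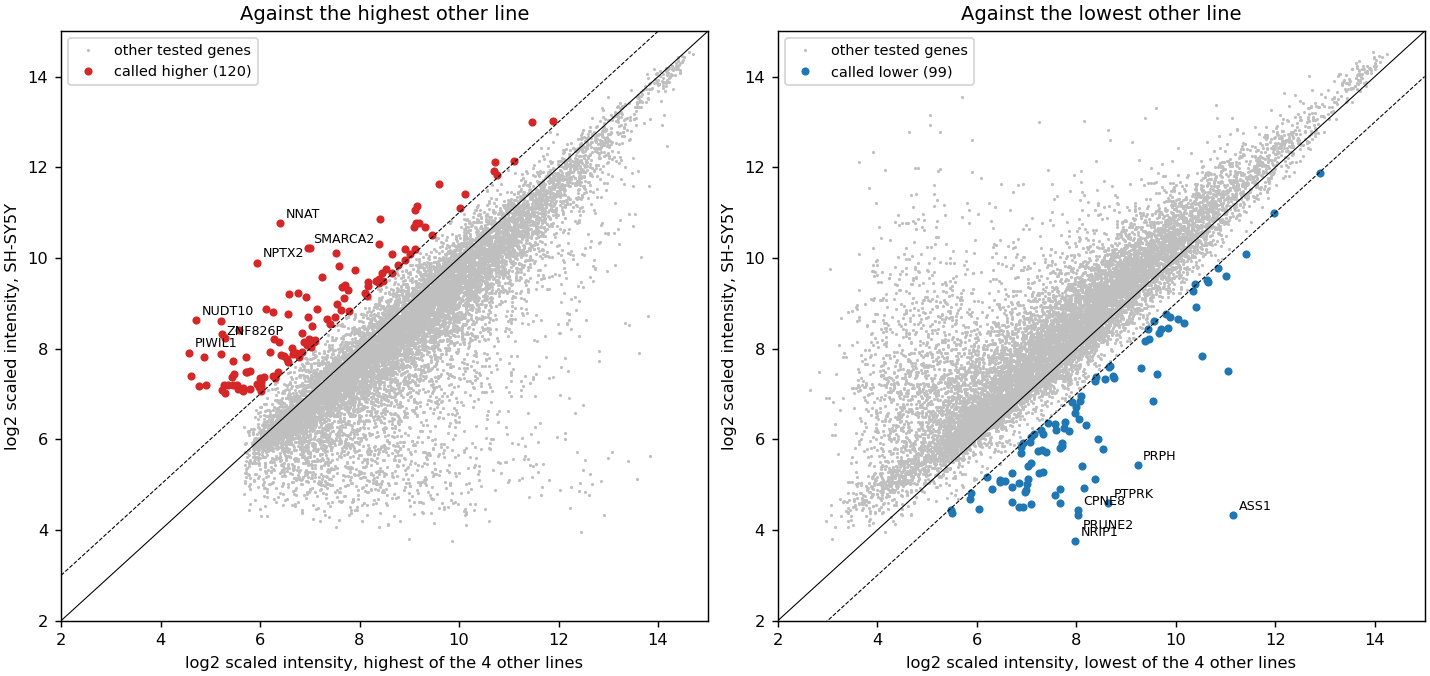
Each point is 1 of 12721 tested genes; the vertical axis is its log2 scaled intensity in SH-SY5Y (mean of 3 arrays) and the horizontal axis that of the highest (left) or lowest (right) of the 4 other lines. Coloured points are the calls, 120 higher and 99 lower, beyond the dashed line 1 log2 unit from equality; NNAT and ASS1 lie farthest from it.

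How far the counts reach depends on the scale. On the deposited intensities, with no shift, 39 genes were called higher and 502 lower, and with the ERCC medians set equal 45 and 376. Higher genes were 54.8% of the calls on centred arrays, 7.21% on the deposited scale, 10.7% on the spike-in scale and 49.6% after quantile normalization. The median over all tested genes, of the mean difference from the 4 lines, was 0.03 on centred arrays, -0.77 on the deposited scale and -0.67 on the spike-in scale. All 39 genes called higher on the deposited scale were among the 120, and all 99 lower genes kept their call on both scales. Each of the 15 higher genes described first, and MAOB, NMU and CXCR4 named later, is among the 39.

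**Figure D2:**
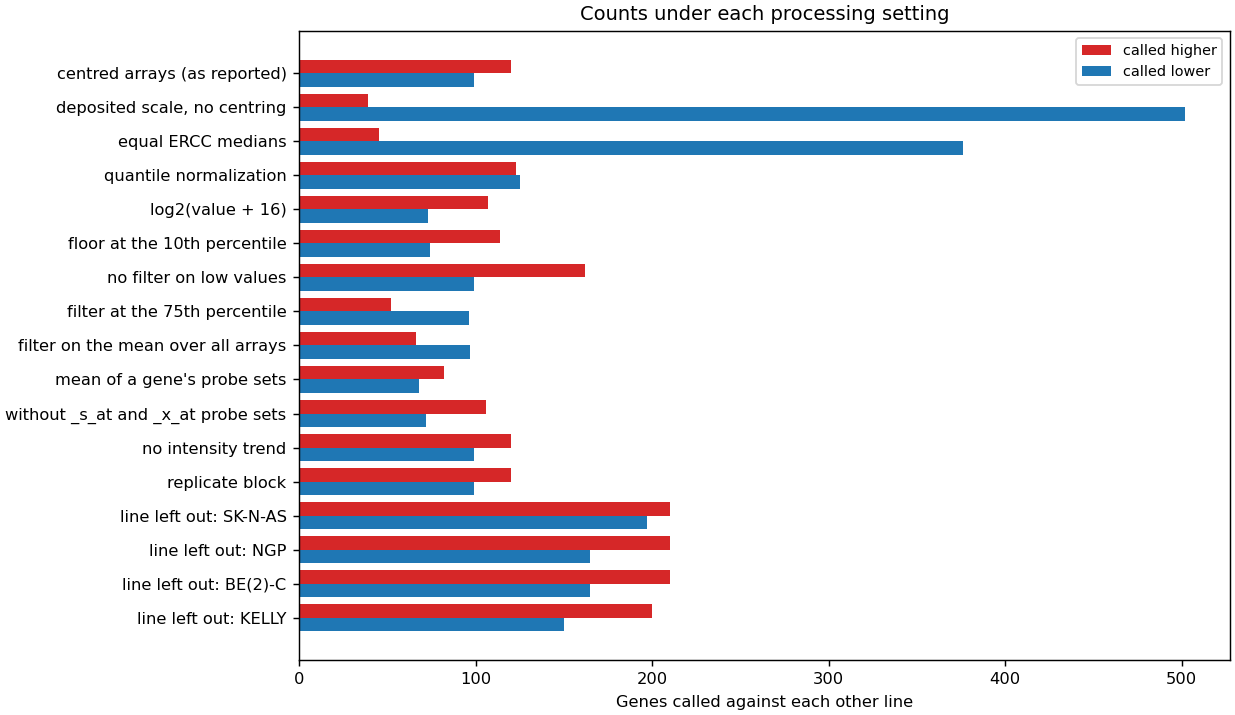
Bars give the number of genes called higher (red) and lower (blue) in SH-SY5Y than in each other line under each processing setting. The split of 120 and 99 on centred arrays becomes 39 and 502 on the deposited scale, and leaving out any 1 comparison line raises both counts.

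PIWIL1, NUDT10 and NNAT marked the line. PIWIL1 encodes an Argonaute-family protein that binds piRNAs in male germ cells. NUDT10 encodes a diphosphoinositol polyphosphate phosphohydrolase, and its near-identical paralog NUDT11 lies beside it on the X chromosome. The 250 bases upstream of the annotated starts of PIWIL1, NUDT10 and NUDT11 are shown because PIWIL1 and NUDT10 were bright in SH-SY5Y alone while NUDT11 was bright in 3 lines. The capitals mark CpG dinucleotides, the sites of DNA methylation. The sequences are RefSeq's, from assembly GRCh38.p14, 5′ to 3′ on the gene's strand, and lie at chr12:130337637-130337886 (plus strand), chrX:51331981-51332230 (plus) and chrX:51496593-51496842 (minus).
PIWIL1: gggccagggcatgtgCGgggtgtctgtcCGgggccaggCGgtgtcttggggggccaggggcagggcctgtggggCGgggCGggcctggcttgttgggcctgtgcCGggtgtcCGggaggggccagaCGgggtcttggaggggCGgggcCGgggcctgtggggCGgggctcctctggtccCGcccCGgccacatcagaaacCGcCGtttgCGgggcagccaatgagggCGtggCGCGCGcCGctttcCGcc
NUDT10: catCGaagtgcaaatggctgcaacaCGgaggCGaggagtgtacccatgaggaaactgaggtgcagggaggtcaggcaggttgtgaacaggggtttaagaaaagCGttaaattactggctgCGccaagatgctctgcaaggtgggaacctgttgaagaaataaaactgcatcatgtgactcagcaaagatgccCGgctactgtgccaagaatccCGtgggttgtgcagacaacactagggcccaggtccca
NUDT11: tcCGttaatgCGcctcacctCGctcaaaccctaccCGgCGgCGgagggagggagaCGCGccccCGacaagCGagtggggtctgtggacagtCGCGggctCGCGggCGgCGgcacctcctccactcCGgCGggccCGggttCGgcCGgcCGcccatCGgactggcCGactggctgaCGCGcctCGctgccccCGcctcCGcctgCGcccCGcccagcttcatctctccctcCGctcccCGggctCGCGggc
The window held 22 CpGs for PIWIL1, 7 for NUDT10 and 35 for NUDT11. The median was 21 over 10408 tested genes with a promoter in the table, so PIWIL1 was near it and the NUDT pair lay on either side. Methylation was not measured.

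NNAT, an imprinted gene for a small membrane protein of the endoplasmic reticulum in developing neurons, read 1701, 1778 and 1750 in SH-SY5Y. The 12 other arrays read 47.5 to 93.9, with the highest in KELLY. That order came with the shift, since KELLY had the lowest deposited mean of the other lines (62.5, against 73.9 to 94.5). The difference from KELLY was 4.37 ± 0.11 (SE; limma adjusted p = 1.19e-15), and both other NNAT probe sets also lay higher, by 3.11 and 3.41 from the nearest line.

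NUDT10 read 383, 416 and 386 in SH-SY5Y and 10.7 to 29.8 on all other arrays, where it was about as dim as the background probe sets. Its difference from KELLY, the nearest line, was 3.93 ± 0.17 (limma adjusted p = 1.42e-12). NUDT11 did not share the pattern. It stood at 485 in SH-SY5Y, 604 in BE(2)-C and 450 in KELLY, and was dim in SK-N-AS (47.7) and NGP (37.0). The paralogs thus differed in BE(2)-C and KELLY, where NUDT11 was bright and NUDT10 was at background. Of the 10 tested genes of inositol pyrophosphate turnover, NUDT10 was the 1 called, and the list's median difference was 0.36. That median was -0.44 on the deposited and -0.35 on the spike-in scale.

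PIWIL1 read 212, 304 and 207 in SH-SY5Y and 8.61 to 27.5 elsewhere, at the level of the background probe sets. The difference from KELLY was 3.34 ± 0.21 (limma adjusted p = 1.49e-10), and 3.12 on the deposited scale. No other PIWI pathway gene was called. Of 23 PIWI pathway and germline genes on the array, 5 were tested. PIWIL2, PIWIL3 and PIWIL4 lay at 49.0, 20.5 and 36.1 in SH-SY5Y, below the filter. TDRD1, a Tudor scaffold of the pathway, was bright only in BE(2)-C (567, against 40.1 in SH-SY5Y). GTSF1, a PIWI cofactor, read 59.7 in SH-SY5Y and 2055, 2338 and 648 in SK-N-AS, NGP and KELLY. The median over the 5 tested genes was -0.64, and -1.44 on the deposited scale.

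NPTX2, a secreted pentraxin that clusters AMPA receptors at synapses, read 948, 921 and 996 in SH-SY5Y and 27.9 to 65.3 elsewhere. The difference from SK-N-AS was 3.95 ± 0.11 (limma adjusted p = 2.39e-15). PLXNA4, a plexin receptor for semaphorins in axon guidance, read 547, 690 and 532, against 93.1 to 97.8 in BE(2)-C and less in the other lines (2.62 ± 0.14). Both genes also lay above the brightness filter in 1 other line, with deposited intensities of 98.7 for NPTX2 in SK-N-AS and 133 for PLXNA4 in BE(2)-C.

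SMARCA2 encodes BRM, 1 of the alternative ATPases of the SWI/SNF chromatin remodelling complex. It read 1191, 1176 and 1212 in SH-SY5Y, 114 to 140 in SK-N-AS, 63.3 to 79.6 in BE(2)-C and 20.5 to 30.7 in NGP and KELLY. The difference from SK-N-AS was 3.26 ± 0.12 (limma adjusted p = 3.98e-14), and all 7 other SMARCA2 probe sets lay higher too, by 1.76 to 3.28. EFS, a Cas-family docking protein of Src kinases, read 1251, 1207 and 1103, against 119 to 136 in NGP and KELLY and 12.1 to 18.8 in SK-N-AS and BE(2)-C (3.22 ± 0.13 from KELLY). The other lines split into a brighter and a dimmer pair for EFS, and SH-SY5Y stood above both pairs.

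The remaining genes of the top 15 were 3 zinc finger genes (ZNF826P, a pseudogene, ZNF415 and ZNF117), FBXO27, SERPINA5, MYO16, ZMAT1 and LHFPL3. FBXO27 is an F-box protein that selects glycoproteins for ubiquitination, SERPINA5 is a serine protease inhibitor and MYO16 an unconventional myosin of neurons. Their SH-SY5Y means ran from 168 (ZMAT1) to 471 (ZNF117), and their differences from the nearest line from 2.68 (LHFPL3) to 3.43 (ZNF826P). In no case did an array of another line exceed 74.5. ZNF826P, FBXO27 and ZMAT1 rest on probe sets marked _s_at or _x_at, which can match related transcripts. ZNF826P and FBXO27 had no unmarked probe set, and that of ZMAT1 was too dim on the deposited scale to be tested.

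**Figure D3:**
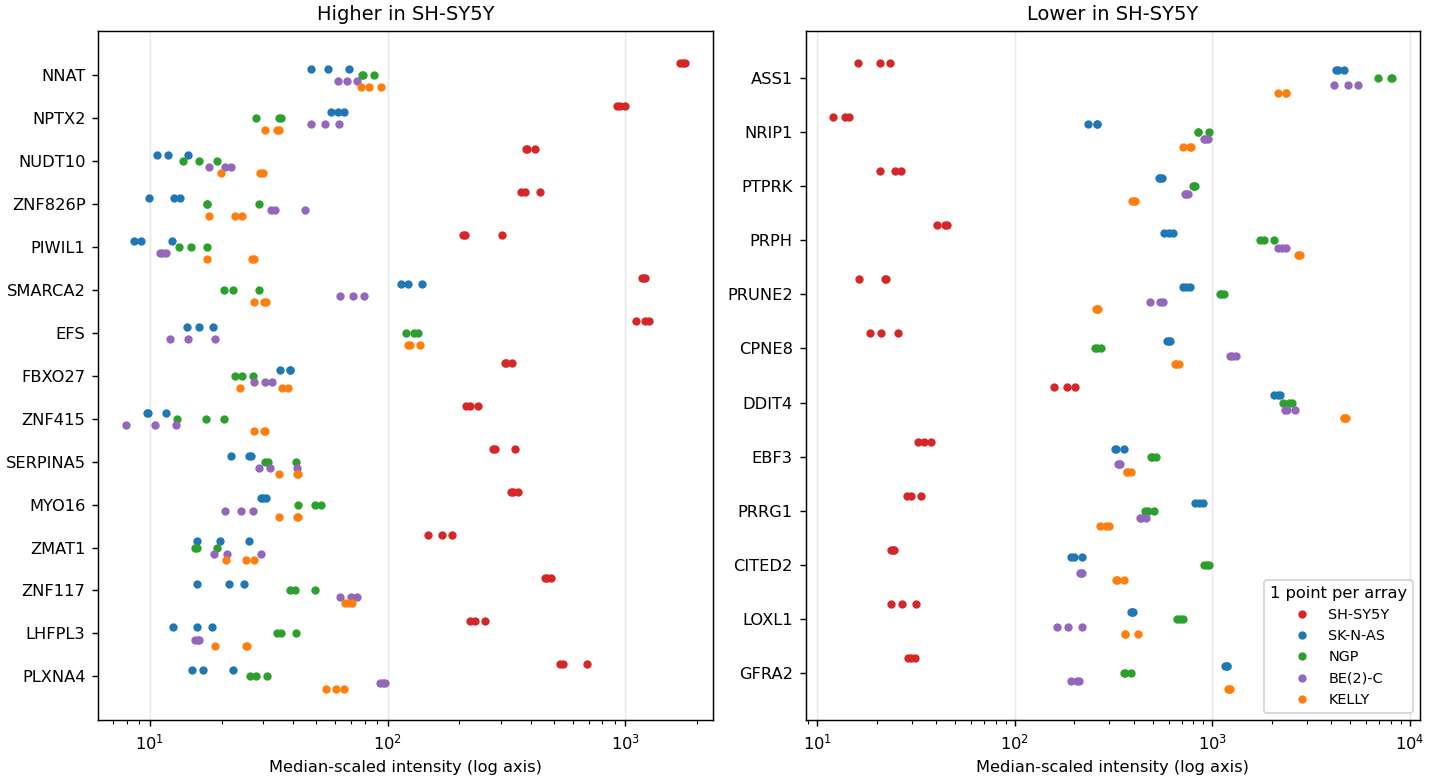
Scaled intensity on a log axis, 1 point per array and 3 per line, for the 15 higher and 12 lower genes farthest from their nearest line. SH-SY5Y (red) stands apart from every other array in all 27 genes.

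The gene farthest below the other lines was ASS1, argininosuccinate synthase, which makes the precursor of arginine from citrulline and aspartate. It read 23.3, 16.1 and 20.7 in SH-SY5Y. The other arrays read 4250 to 4622 in SK-N-AS, 6913 to 8136 in NGP, 4138 to 5436 in BE(2)-C and 2142 to 2357 in KELLY. The difference from KELLY was -6.85 ± 0.11 (limma adjusted p = 4.66e-18), a ratio of 115, and SH-SY5Y lay below the background probe sets, so the background sets the size of the ratio. A second ASS1 probe set was lower by 5.56. Both are marked _s_at or _x_at, and ASS1 has processed pseudogenes that such probe sets could also read. ASL, the next enzyme of the pathway, was not called and read 404 in SH-SY5Y, between NGP (260) and KELLY (714).

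The 250 bases upstream of the ASS1 start are shown as the sequence of the gene with the widest gap. They lie at chr9:130444457-130444706 on the plus strand of GRCh38.p14 and hold 21 CpGs (capitals), the same as the median over tested genes.
ASS1: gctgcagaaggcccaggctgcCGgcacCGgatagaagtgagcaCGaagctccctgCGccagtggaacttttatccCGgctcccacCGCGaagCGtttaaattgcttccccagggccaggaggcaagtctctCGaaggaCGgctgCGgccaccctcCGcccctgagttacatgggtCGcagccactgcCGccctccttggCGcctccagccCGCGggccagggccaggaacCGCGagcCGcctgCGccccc
No CACGTG, the E-box that MYC and MAX bind, was in this window.

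NRIP1, a corepressor of nuclear receptors, read 13.8, 14.5 and 12.1 in SH-SY5Y, against 234 to 262 in SK-N-AS and 707 to 964 in the 3 other lines (-4.23 ± 0.08; limma adjusted p = 3.78e-18). PTPRK, a receptor-type tyrosine phosphatase of cell contacts, read 26.6, 24.7 and 20.8 against 393 to 819 elsewhere (-4.07 ± 0.07). Both were at the background level in SH-SY5Y and in no other line.

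PRPH encodes peripherin, the intermediate filament of peripheral neurons. It read 45.1, 40.2 and 44.5 in SH-SY5Y, 567 to 634 in SK-N-AS and 1747 to 2763 in NGP, BE(2)-C and KELLY. The difference from SK-N-AS was -3.80 ± 0.07 (limma adjusted p = 1.93e-18). The other neuronal filament genes did not follow it: NEFL stood at 4583, NEFM at 2132 and INA at 2390 in SH-SY5Y, each within the range of the 4 other lines. PRPH in SH-SY5Y thus lay below the brightness filter, at a deposited intensity of 26.8 beside 16.5 for the background probe sets, while the other neurofilament transcripts were bright.

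DDIT4, a stress-induced inhibitor of mTORC1, read 183, 159 and 201 against 2053 to 4729 elsewhere (-3.57 ± 0.07). It was the 1 gene of the 12 lowest that was still above the filter in SH-SY5Y. CITED2, a partner of the coactivators CBP and p300, read 23.7, 24.1 and 24.5 against 192 to 965 (-3.07 ± 0.06). GFRA2, the neurturin co-receptor of RET, read 28.7 to 31.3 against 191 to 1229 (-2.76 ± 0.06). Other probe sets lay closer to the nearest line, at -1.36 for CITED2 and at -0.22 and -1.66 for GFRA2.

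The other lowest genes were PRUNE2, CPNE8, PRRG1, LOXL1 and EBF3. CPNE8 is a copine, a calcium-dependent lipid-binding protein, PRRG1 a membrane protein with a Gla domain and LOXL1 a lysyl oxidase-like enzyme of elastic fibres. PRUNE2, CPNE8, PRRG1 and LOXL1 lay at 16.3 to 33.5 in SH-SY5Y and at 163 to 1322 on the other arrays. Further probe sets lay closer to the nearest line, at -0.62 for CPNE8 and at -0.70 and -1.15 for PRUNE2. PRRG1 has 1 probe set, marked _s_at. EBF3, a transcription factor of neural development, is uncertain. Its brightest probe set, marked _s_at, read 32.2 to 37.8 against 321 to 518 (-3.26 ± 0.07). Without such probe sets the nearest difference was 0.14, so SH-SY5Y no longer lay below every line.

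Lists of genes with known roles were then read for how SH-SY5Y stood, each beside the values over all tested genes (median difference 0.03, with 0.943% called higher and 0.778% lower). Few list members were called. Uncalled members other than SIX3, TFAP2B, CHRM3, PRIMA1, LUM and KRT18 were chosen for mention after their values were seen, as were NUDT11, ASL and CCNC. Of 18 adrenergic transcription factors 0 were called, although their median was 0.85 above the mean of the other lines. That median was 0.05 on the deposited and 0.15 on the spike-in scale. The value on centred arrays came mainly from SK-N-AS (median difference 2.09), against 0.40 from NGP, 0.22 from BE(2)-C and 0.01 from KELLY. SIX3, a homeobox factor, read 1643 to 1917 in SH-SY5Y and 811 to 970 in NGP, the nearest line, a difference of 0.96. TFAP2B, an AP-2 factor of sympathetic development, read 4600 to 5838, and its values overlapped the 4281 to 4532 of BE(2)-C.

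Catecholamine genes were called once in 15. MAOB, a mitochondrial monoamine oxidase, read 231, 209 and 192 in SH-SY5Y and 20.7 to 48.2 elsewhere (2.26 ± 0.13). MAOA, its paralog, stood at 421 and was not called. DBH, which makes noradrenaline from dopamine, was at 3789, above KELLY (3051) by less than the threshold. The vesicle transporter SLC18A2 was at 60.1, against 2127 in KELLY. The list's median difference was 0.59, and -0.21 and -0.11 on the deposited and spike-in scales.

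Among 13 cholinergic genes 0 were called, with a median of 0.60 (-0.20 deposited, -0.10 spike-in). The muscarinic receptor gene CHRM3 read 344 to 378 in SH-SY5Y and 417 to 438 in BE(2)-C, and PRIMA1, the membrane anchor of acetylcholinesterase, 506 to 549 and 793 to 815. Both were thus highest in BE(2)-C. CHAT, which makes acetylcholine, lay at 86.9 in SH-SY5Y and 90.7 to 96.4 in the others.

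Neuropeptide and secretory granule genes had 1 call in 18. NMU, the peptide neuromedin U, read 1820, 2113 and 1611 in SH-SY5Y, 328 to 348 in BE(2)-C and 24.1 to 191 in the rest (2.44 ± 0.11). Its call rests on a probe set marked _x_at. NPY, the sympathetic cotransmitter, was high in SH-SY5Y (2369) and in BE(2)-C (3145) and at 76.4 to 287 in the other 3 lines, so it was not called. The list's median was 0.98, and it stayed above 0 on the deposited (0.18) and spike-in scales (0.28).

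The 27 neuronal cytoskeleton and growth cone genes had 1 higher and 1 lower call, with a median of 0.95 that also stayed positive on both other scales (0.15 and 0.24). Their median difference was 3.93 from SK-N-AS and -0.08 to 0.25 from the 3 amplified lines. The lower gene was PRPH. RTN1, a reticulon of the neuronal endoplasmic reticulum, read 3607 to 4182 in SH-SY5Y, 1625 to 1722 in NGP, 456 to 489 in KELLY and 31.7 to 43.4 in SK-N-AS and BE(2)-C. Its difference from NGP was 1.21 on centred arrays and 0.69 on the deposited scale, where its call was lost.

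Mesenchymal genes had 1 lower call in 26 and a median of -0.83. Here too the gap was from SK-N-AS (-2.40), against -0.27 to -0.05 from the other lines. COL6A1, a chain of collagen VI, read 672 to 873 in SH-SY5Y and 2018 to 4070 elsewhere (-1.41 from SK-N-AS). With the mean over its probe sets the difference was -0.62 and the call was lost. Among 14 markers of other cell types 0 were called. LUM, a matrix proteoglycan, read 56.5 to 63.9, below NGP and above KELLY, and the keratin KRT18 read 49.7 to 55.7, against 5143 to 5484 in SK-N-AS.

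**Figure D4:**
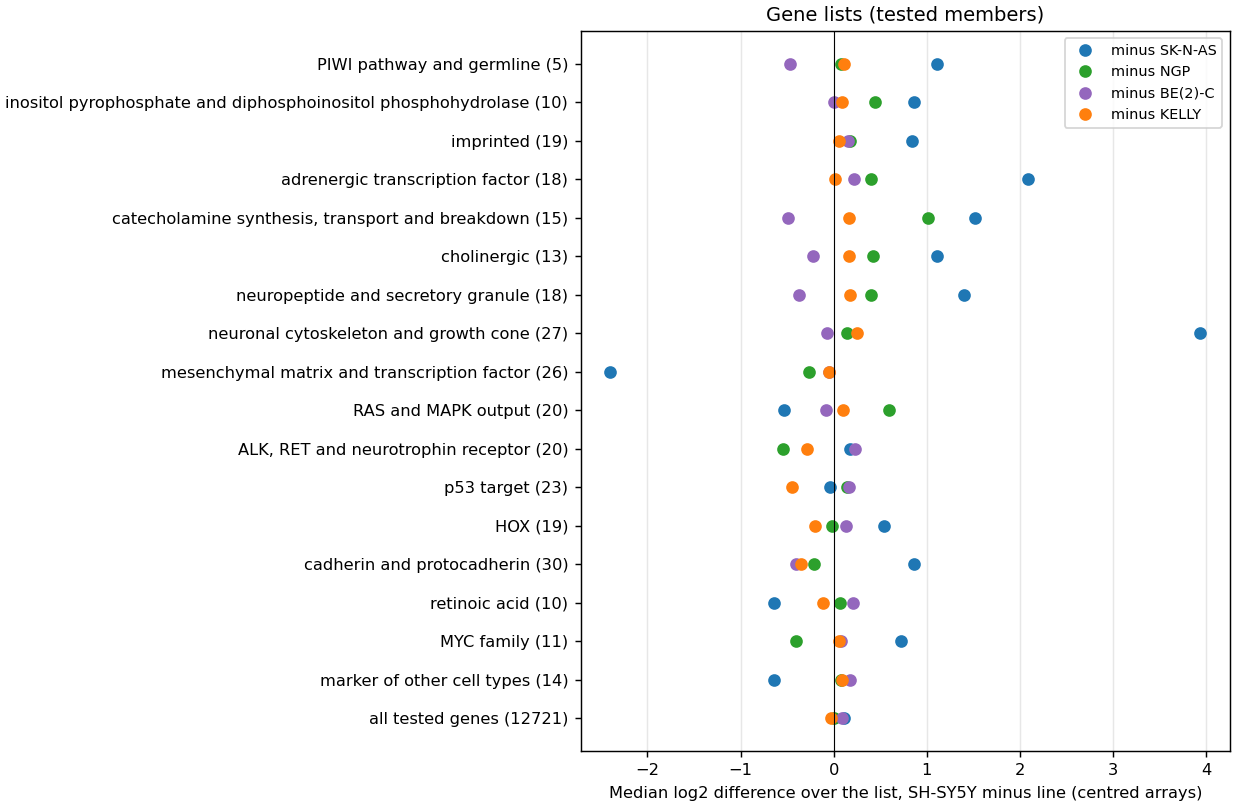
For each of 17 gene lists (tested members in brackets) and for all tested genes, points give the median log2 difference of SH-SY5Y from each other line on centred arrays. The neuronal and adrenergic lists lie 3.93 and 2.09 above SK-N-AS and near 0 against the amplified lines, and the mesenchymal list lies 2.40 below SK-N-AS.

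The imprinted genes had 2 higher calls in 19, NNAT and CDKN1C, with a median of 0.30 (-0.51 deposited). CDKN1C, which encodes the cell cycle inhibitor p57, read 785, 967 and 791 in SH-SY5Y, 224 to 264 in SK-N-AS, 206 to 229 in KELLY and 22.4 to 38.9 in NGP and BE(2)-C. The difference from SK-N-AS was 1.81, and 0.48 on the deposited scale, where it was not called. Other imprinted genes went other ways: BLCAP, the host gene in whose intron NNAT lies, stood at 866 in SH-SY5Y and 608 to 881 elsewhere, and MEST at 47.9, against 8119 in SK-N-AS and 2234 in KELLY.

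Among 20 receptor genes ALK was called higher and GFRA2 lower, with a median of -0.08. ALK, a receptor tyrosine kinase of the sympathetic lineage, read 784, 753 and 679 in SH-SY5Y, 250 to 405 in NGP and 18.7 to 294 in the rest. Its difference from NGP was 1.16 ± 0.13, and 0.96 without the second NGP array, 0.64 on the deposited scale and 0.77 on the spike-in scale, none of which made the call. RET stood at 2006, between KELLY (1600) and BE(2)-C (3405).

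RAS and MAPK output genes had 1 call in each direction in 20 and a median of 0.04 (-0.76 deposited). The higher call was MYC. IER3, an immediate early gene, read 36.7, 36.1 and 32.3 in SH-SY5Y, 129 to 133 in KELLY and up to 12730 in SK-N-AS (-1.90 ± 0.07). With values raised to a floor at the 10th percentile the difference was -0.99 and missed the threshold. DUSP6 and SPRY2, feedback inhibitors of ERK signalling, stood at 2616 and 1177, below SK-N-AS (3607 and 1655) and above the 3 amplified lines.

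MYC and MYCN, the paralogous transcription factors, ran opposite ways between the amplified and the non-amplified lines. On centred arrays SH-SY5Y lay above SK-N-AS for both. MYCN read 257, 284 and 179 in SH-SY5Y, 48.2 to 51.2 in SK-N-AS and 9091 to 12800 in the amplified lines, so SH-SY5Y lay between them. MYC read 2680, 2634 and 2845 in SH-SY5Y, 1063 to 1130 in SK-N-AS and 32.1 to 64.2 in the amplified lines. Against the amplified lines the MYC difference was 5.55 to 6.27. Against SK-N-AS it was 1.30 ± 0.10 on centred arrays (limma adjusted p = 1.24e-09), but -0.03 on the deposited and 0.01 on the spike-in scale, so whether MYC was higher in SH-SY5Y than in SK-N-AS was decided by the scaling. MYC was the 1 call among 11 genes of the MYC family network (median 0.14, and -0.66 on the deposited scale).

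In the other lists 1 gene each was called. CDKN1A, the p53 target p21, read 331 to 376 in SH-SY5Y and 683 to 1500 elsewhere. Its difference of -1.002 sat on the threshold and was -0.61, and not called, without _s_at and _x_at probe sets. The 23 p53 targets had a median of -0.09. HOXC8 read 40.8 to 47.0 against 264 to 634 (-2.69 ± 0.09), whereas its neighbours HOXC4 and HOXC6 stood at 1137 and 918 within the range of the other lines. The 19 HOX genes had a median of -0.06. PCDHB3, of the clustered protocadherins, read 167 to 194 against 12.7 to 57.2 (1.75, and 0.41 and not called on the deposited scale), with a median of -0.23 over 30 cadherins. RDH10, which makes retinal for retinoic acid synthesis, read 55.7 to 67.7 against 128 to 482 (-1.12, and -0.79 with the mean over its probe sets, where the call was lost). The 10 retinoic acid genes had a median of 0.12, and -0.68 on the deposited scale.

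The arrays carried further probe sets for many of these genes, which the rule did not use, on the same RNA. Only those whose brightest line reached the filter value after the shift were counted. A dim probe set of a higher gene could thus enter through SH-SY5Y alone, which favours agreement. Over all tested genes, by the probe set used for each, 17.4% lay above and 13.7% below all 4 lines. For 65 higher genes, 131 of 132 other probe sets (99.2%) lay above all 4 lines, and 90 by at least 1. The exception was a probe set of DPYSL4. For 65 lower genes, 117 of 124 (94.4%) lay below all 4 lines, and 55 by at least 1. The 7 exceptions among those counted were probe sets of SYNGR1, EBF3, SHISA3, BCL6, SLC6A9, FRMD4B and HERPUD1. They are named here because they did not lie below all 4 lines, and 0 of the 124 lay above all 4. TNFRSF1A had a further exception outside this count. Without _s_at and _x_at probe sets its nearest difference was 0.41 and its call was lost. When a gene's probe sets were averaged, 77 of the higher and 60 of the lower calls were kept.

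Members were unevenly spread over the chromosomes, by the RefSeq table. Chromosome 7 held 14 of the 120 higher genes (11.7%), among them NPTX2, ZNF117, LHFPL3 and PLXNA4, and 4.73% of the tested genes. Its 601 tested genes had a median difference of 0.26, and the median was above each line, by 0.11 (KELLY) to 0.33 (NGP). Chromosome 18 had a median of 0.32, but of -0.04 against KELLY. Chromosome 22 held 0 higher and 6 lower genes among 324 tested, with a median of -0.18, although 0.08 against SK-N-AS. Lower genes were 13 of 641 tested on chromosome 6 (2.03%) and 10 of 460 on chromosome 8 (2.17%). Copy number was not measured, and its part in these values was not tested.

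In the order of the tested genes along the chromosomes, 6 pairs of neighbours were both called, each in the same direction. Of all tested genes 0.943% were called higher and 0.778% lower. How many such pairs these shares alone would give was not worked out, so the count is a description only. The higher pairs were KCNQ1 and CDKN1C in an imprinted region of chromosome 11, C7 and PLCXD3 on 5, GCNT2 and C6orf52 on 6, and ZMAT1 and TCEAL2 on X. The lower pairs were TUBA1C and PRPH on 12 and PTPRK and ARHGAP18 on 6. TUBA1C, an alpha-tubulin with close paralogs, read 31.9 to 32.8 in SH-SY5Y, 121 to 137 in BE(2)-C and 4424 to 7171 in the other lines. PTPRK and ARHGAP18 were low by different amounts, -4.07 and -1.07 from the nearest line.

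**Figure D5:**
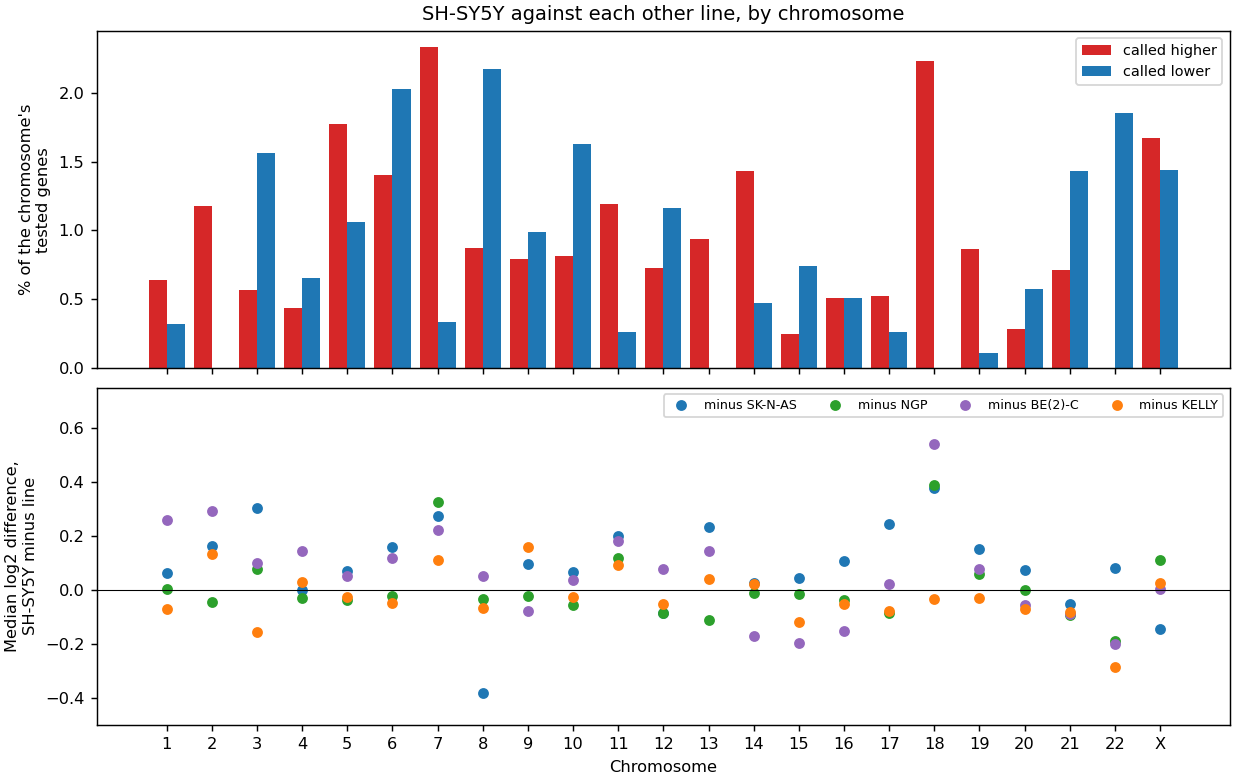
The upper panel gives, per chromosome, the percentage of its tested genes called higher or lower in SH-SY5Y than in each other line. The lower panel gives the median log2 difference of its tested genes from each line on centred arrays; on chromosome 7 all 4 medians lie above 0 (0.11 to 0.33), and on chromosome 18 the medians are higher against 3 lines and -0.04 against KELLY.

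Promoters of the members differed little from other tested genes in base composition. Over the 250 bases upstream, the median CpG count was 22 for 96 higher genes, 22 for 74 lower genes and 21 for 10408 tested genes, against 10 for all 27305 promoters listed. The palindrome CACGTG, the same on both strands, was in 5 of the 96 higher promoters (5.21%), 12 of the 74 lower (16.2%) and 8.89% of tested ones. CITED2 and MYO16 held it among the 27 genes described. A match is a description of the letters only, and binding was not measured.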

How the data were processed

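The authors deposited linear intensities for each probe set. Per the submitters' processing notes they used MAS5, with version, settings and any scaling not given in the sources used here. Of 49494 probe sets, 45277 name 1 gene in the platform annotation, and the brightest on average stood for its gene. Arrays were transformed as log2(intensity + 1) and centred on their median over the tested genes. A limma model (3.58.1, R 4.3.3) with 1 mean per line and an intensity trend was fitted to all 15 arrays, SH-SY5Y was contrasted with each line, and a gene was called when all 4 contrasts passed an adjusted p of 0.05 and a difference of 1 in 1 direction. In simulated data with 200 of 12721 genes changed in SH-SY5Y by 1.5 or 2.5 (log2), 100% were recovered with 0 false calls. No other gene was changed, and every change lay beyond the threshold of 1. The simulation thus checked only that the rule finds such changes. It cannot give the rate of false calls in the real arrays, where the other lines also differed and the shift moved the background. Names, chromosomes and promoters are RefSeq's.

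Genes were named by a rule: the 15 higher and 12 lower calls farthest from their nearest line, NNAT, NUDT10, PIWIL1, MYC, MYCN, up to 4 calls per gene list (or the 2 uncalled members with the largest difference), and the 2 genes on each side of each threshold. The rule, the members and the gene lists were chosen with earlier results of these data known. The 31 alternatives covered the scale, pseudocount, floor, filter, probe set choice, variance trend, replicate block, each line and each array. With 3 arrays a line, their number sets the precision.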

Additional observations from a re-analysis of the deposited data

How the results depend on the processing

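Counts of genes above and below all 4 lines, 120 and 99, moved most with the scale: 39 and 502 on the deposited scale, and 45 and 376 with equal ERCC medians. The higher count was 52 with the filter at the 75th percentile and 66 with the filter on the mean over all arrays, which tested 8707 and 10618 genes. Comparing with 3 lines raised the counts to 210 and 197 without SK-N-AS, 210 and 165 without NGP, 210 and 165 without BE(2)-C, and 200 and 150 without KELLY, since fewer conditions have to be met. Under quantile normalization the counts were 123 and 125, with 114 and 94 genes shared. With each array left out in turn they ran from 116 to 124 and from 91 to 108, the extremes coming from SH-SY5Y arrays. Replicate numbers did not pair the samples: deviations of same-numbered arrays correlated at -0.23 to 0.23 over 30 pairs, and 6 of 15 arrays matched their own number best. With the replicate block the counts stayed at 120 and 99.

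Of the alternatives for single named genes, 1353 kept the direction and the side of the threshold, 24 missed the threshold, 6 newly passed it and 3 changed sign. The values with a changed sign were 0.14 for EBF3 without _s_at and _x_at probe sets, -0.035 for MYC on the deposited scale, and 0.17 for KRT18 with SK-N-AS left out. Those of EBF3 and MYC are differences from the nearest line alone and do not give the direction against the other lines. Why EBF3's probe sets differ was not tested. Medians of the inositol pyrophosphate, imprinted, catecholamine, cholinergic, RAS and MAPK, retinoic acid and MYC family lists were above 0 on centred arrays and below 0 on the deposited scale, where the median of all genes shifted by about as much. Signal over background limits the ratios of genes such as ASS1, NUDT10 and PIWIL1, whose dim side lies at the background.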

Other observations

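Genes in this section were chosen after their values were seen, and their lists were put together afterwards, so they carry no test. Amino acid and integrated stress response genes, the targets of the kinases that sense amino acid shortage and misfolded protein, lay low in SH-SY5Y. Of 45 tested genes 0 were called higher and 9 lower, against 0.778% of all tested genes called lower, and 28 (62.2%) lay below all 4 lines, as did 13.7% of all tested genes. The median difference was -0.86, against 0.03 over all tested genes, and -0.84 after quantile normalization. On the deposited scale 24 were called lower and 41 lay below all 4 lines, with a median of -1.66 against -0.77 over all tested genes, and with equal ERCC medians 18 and 38, with -1.56 against -0.67. The lower calls were ATF4, CEBPB, SLC7A11, SLC6A9, DDIT4, STC2, INHBE, HERPUD1 and AARS1. With the mean over a gene's probe sets 7 were called lower, and SLC6A9 (0.07) and HERPUD1 (-0.68) lost the call. ATF4, the central transcription factor of the response, read 3673, 3734 and 3919 in SH-SY5Y and 7398 to 11680 elsewhere, a difference of -1.01 that was -0.90 and not called after quantile normalization. SLC7A11, the cystine transporter, read 47.7 to 66.7 against 345 to 1631, and CEBPB, a bZIP factor, 196 to 258 against 1400 to 2399. ASNS, the asparagine synthetase, went otherwise and stood at 3184 in SH-SY5Y, above SK-N-AS (2585). In the urea cycle and arginine list, 2 of 12 tested genes were lower, ASS1 and the cationic amino acid transporter SLC7A2, which read 160 to 172 against 410 to 3730.

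The counts of axon guidance genes depended on the scale. Of 28 tested semaphorins, plexins and neuropilins, PLXNA4, SEMA3C and SEMA5A were higher and SEMA3A, NRP1 and PLXND1 lower on centred arrays, with a median of -0.03, beside 0.943% and 0.778% of all tested genes. On the deposited scale 1 was higher and 6 were lower, and with equal ERCC medians 1 and 5. SEMA3C (0.09) and SEMA5A (0.72) lost their calls on the deposited scale, and PLXNA4 kept its own (1.49). The receptor NRP1 read 22.5 to 25.9 in SH-SY5Y and 92.1 to 603 elsewhere, but the call did not hold with the mean over its probe sets (-0.47). The chemokine receptor CXCR4 and its ligand CXCL12 went opposite ways. CXCR4 read 1761, 1627 and 1888 against 577 to 587 in NGP and 23.03 to 102 in the rest, while CXCL12 read 19.8, 26.4 and 22.5 against 113 to 233 elsewhere. The CXCL12 call was lost without _s_at and _x_at probe sets (-0.46).

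Among 381 tested genes whose symbol is ZNF and a number, 9 were called higher and 0 lower, 2.36% against 0.943% of all tested genes, with a median difference of 0.36. On the deposited scale ZNF117, ZNF415, ZNF781 and ZNF826P kept the call. ZNF423, ZNF439 and ZNF853 lost it there. So did ZNF195 (-0.08 from the nearest line) and ZNF232 (-0.10), which no longer lay above every line. BCL2, an inhibitor of apoptosis, read 307, 400 and 412 in SH-SY5Y and 68.0 to 191 elsewhere, a difference of 1.14 that was not kept with the mean over its probe sets (0.63), on the deposited scale (0.02) or with equal ERCC medians (0.16). ST8SIA1, which makes the ganglioside GD3, precursor of the neuroblastoma antigen GD2, read 120, 147 and 166 against 9.55 to 30.9, and it kept its call on the deposited scale (2.18). HDAC9, a class IIa histone deacetylase, read 1606 to 1665, against 32.3 to 571 in the other lines, and its call was lost on the deposited scale (0.45) and with equal ERCC medians (0.60).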
